A study of Homo sapiens with 32 samples.

Results

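HNF4α binding was compared between AsPC1 pancreatic cancer cells in which CRISPR interference was directed at either of the gene's own promoters, P1 (guide sgP1E, labelled sgP1) or P2 (guide sgP2D, labelled sgP2). The members are regions made by merging the overlapping peaks of 4 peak lists, 2 libraries for each guide, all immunoprecipitated with an antibody against every HNF4α isoform (pan-HNF4α). Of 20473 merged regions, 562 were present in both sgP1 lists and neither sgP2 list (sgP1-specific), 885 were present in both sgP2 lists and neither sgP1 list (sgP2-specific), and 7771 were present in all 4 lists (shared). The other 11255 had another pattern of presence. All 18 peak lists of the series merge into 78729 regions.

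The series mapped HNF4α by ChIP-seq in human pancreatic ductal adenocarcinoma lines. AsPC1 cells carried sgP1, sgP2 or a control guide, sgNC, and no inducer is given for them. The sgP2 and sgNC cells were also mapped with an antibody to P1 isoforms only, and no P1-antibody list of sgP1 cells was analysed here. Libraries of other lines served for reference: Panc10.05 cells in which doxycycline induced the P1 isoform P1-α2 (25 ng/mL) or the P2 isoform P2-α8 (12.5 ng/mL), and BxPC3 cells with the same isoforms (500 ng/mL for both). Each group had 2 libraries. Nothing in the labels says that the replicates are separate cultures, so the spread between them may be technical. A single guide stands for each promoter, and effects of a guide at sites other than its target were not tested.

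HNF4α is a nuclear receptor that binds DNA as a homodimer and controls epithelial, liver and gut genes. Transcripts from P1 encode an N-terminal activation domain that P2 transcripts lack, while both kinds share the DNA-binding domain. Repressing P1 leaves the P2 isoforms to bind, and repressing P2 leaves the P1 isoforms. CRISPR interference holds a nuclease-dead Cas9, often fused to a repressor, at the site the guide matches.

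The bases before each HNF4A start are shown because the guides are named for these promoters, from the RefSeq table of assembly GRCh38.p14, 5′ to 3′ on the plus strand. The upstream start belongs to the P2 promoter and the downstream start, 45.5 kb away, to P1. Capitals mark the HNF1 half-site GTTAAT on either strand, the recognition half-site of the HNF1 factors.

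HNF4A upstream start, chr20:44355449-44355698: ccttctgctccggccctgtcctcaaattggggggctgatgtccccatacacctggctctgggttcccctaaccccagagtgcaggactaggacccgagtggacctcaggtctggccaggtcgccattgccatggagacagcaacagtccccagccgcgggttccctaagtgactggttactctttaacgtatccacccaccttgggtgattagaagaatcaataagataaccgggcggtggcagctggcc
HNF4A downstream start, chr20:44400989-44401238: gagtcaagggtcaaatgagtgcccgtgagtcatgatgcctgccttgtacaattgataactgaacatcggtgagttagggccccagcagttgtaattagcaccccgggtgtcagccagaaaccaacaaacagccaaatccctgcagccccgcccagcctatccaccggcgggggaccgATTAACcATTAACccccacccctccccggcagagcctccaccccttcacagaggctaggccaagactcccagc

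The downstream window held 2 exact matches and the upstream window held 0. No mismatch was allowed in this search, so a count of 0 does not show that a window lacks HNF1 sites.

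The next 4 windows are promoters that a specific region overlaps and that hold the HNF4 motif, the 2 strongest of each specific class. Capitals mark the motif CAAAGTCCA, searched on both strands with up to 1 mismatch, and each sequence runs 5′ to 3′ on the gene's strand, the minus strand in all 4. DICER1 encodes the nuclease that cuts microRNA precursors, and KCNN4 a calcium-activated potassium channel. A1CF encodes a cofactor of apolipoprotein B mRNA editing, and AATK a kinase named for apoptosis.

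DICER1 (sgP1-specific), chr14:95157530-95157779: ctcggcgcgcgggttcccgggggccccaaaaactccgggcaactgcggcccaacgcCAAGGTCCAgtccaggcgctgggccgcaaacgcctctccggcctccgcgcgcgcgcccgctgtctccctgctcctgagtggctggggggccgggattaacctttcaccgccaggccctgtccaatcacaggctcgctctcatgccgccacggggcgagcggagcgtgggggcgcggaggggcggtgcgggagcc
KCNN4 (sgP1-specific), chr19:43780974-43781223: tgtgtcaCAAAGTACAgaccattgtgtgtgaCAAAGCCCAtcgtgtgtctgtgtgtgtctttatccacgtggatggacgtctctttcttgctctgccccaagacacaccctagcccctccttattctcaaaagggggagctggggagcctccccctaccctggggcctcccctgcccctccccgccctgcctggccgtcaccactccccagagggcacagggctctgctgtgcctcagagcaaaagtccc
A1CF (sgP2-specific), chr10:50885628-50885877: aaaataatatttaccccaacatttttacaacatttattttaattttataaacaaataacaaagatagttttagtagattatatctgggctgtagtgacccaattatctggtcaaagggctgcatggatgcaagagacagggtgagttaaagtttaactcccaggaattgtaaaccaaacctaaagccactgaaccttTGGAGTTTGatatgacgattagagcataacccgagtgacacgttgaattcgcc
AATK (sgP2-specific), chr17:81131955-81132204: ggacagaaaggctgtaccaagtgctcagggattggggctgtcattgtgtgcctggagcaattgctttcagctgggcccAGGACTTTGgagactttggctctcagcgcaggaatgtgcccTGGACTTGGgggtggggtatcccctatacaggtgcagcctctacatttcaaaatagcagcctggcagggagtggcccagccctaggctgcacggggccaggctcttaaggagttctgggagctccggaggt

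Binding at HNF4A itself was examined first, as the check of the labels. Strength is given as the percentile of a peak's fold enrichment over background within its own list, with 100 the strongest, because the authors' fold values are comparable only within a list. At the upstream start, the P2 promoter, a peak stood at percentiles 86.0 and 82.4 in the 2 sgP1 lists and at 91.0 and 91.5 in the 2 sgNC lists, and no peak was called in either sgP2 list. The sgP1 summits lay at -202 and -212 bases from that start, inside the window printed above. This region (chr20:44355096-44356002) was the second strongest of the sgP1-specific regions, and it overlapped a peak in 0 of the 8 lists of the induced lines.

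At the downstream start, the P1 promoter, both sgNC lists held a peak (percentiles 43.0 and 14.5). Neither sgP1 list did, but sgP2 replicate 1 had none either, and sgP2 replicate 2 held a weak one at percentile 6.09. The P2 promoter peak was thus called in the sgP1 and sgNC lists and in neither sgP2 list, whereas binding at P1 did not separate the guides. Each of the 4 P1-antibody lists lacked a peak at both starts. HNF4A RNA and protein were not analysed here.

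The specific regions were weak in the lists that held them, and the strong peaks of the 4 lists were nearly all shared. The share of merged regions was 2.75% for the sgP1-specific class and 4.32% for the sgP2-specific class. The median percentile of sgP1-specific regions was 31.3 and 27.5 in the 2 sgP1 lists, and that of sgP2-specific regions was 27.8 and 34.5 in the 2 sgP2 lists. Shared regions had medians of 65.5 to 72.9. Since the classes rest on these lists, the values are descriptions.

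Among regions in the top 10% of a list, 0 of 1407 and 1 of 1168 were sgP1-specific in the sgP1 lists, and 0 of 1231 and 0 of 1509 were sgP2-specific in the sgP2 lists. Between 99.4% and 100% of these strongest regions were shared. Below percentile 25 of the lists, 6.26% and 9.12% of regions were sgP1-specific and 13.4% and 8.91% were sgP2-specific. The lowest −log10 q of the 4 lists was between 2.00 and 2.02. Percentiles rank fold enrichment and not q, so a low percentile need not lie at that threshold. The sgP2 replicate 2 peak at the P1 promoter of HNF4A, at percentile 6.09, had a −log10 q of 5.17. Specific regions were also narrower, with median widths of 420 bp and 378 bp against 716 bp for shared regions.

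**Figure D1:**
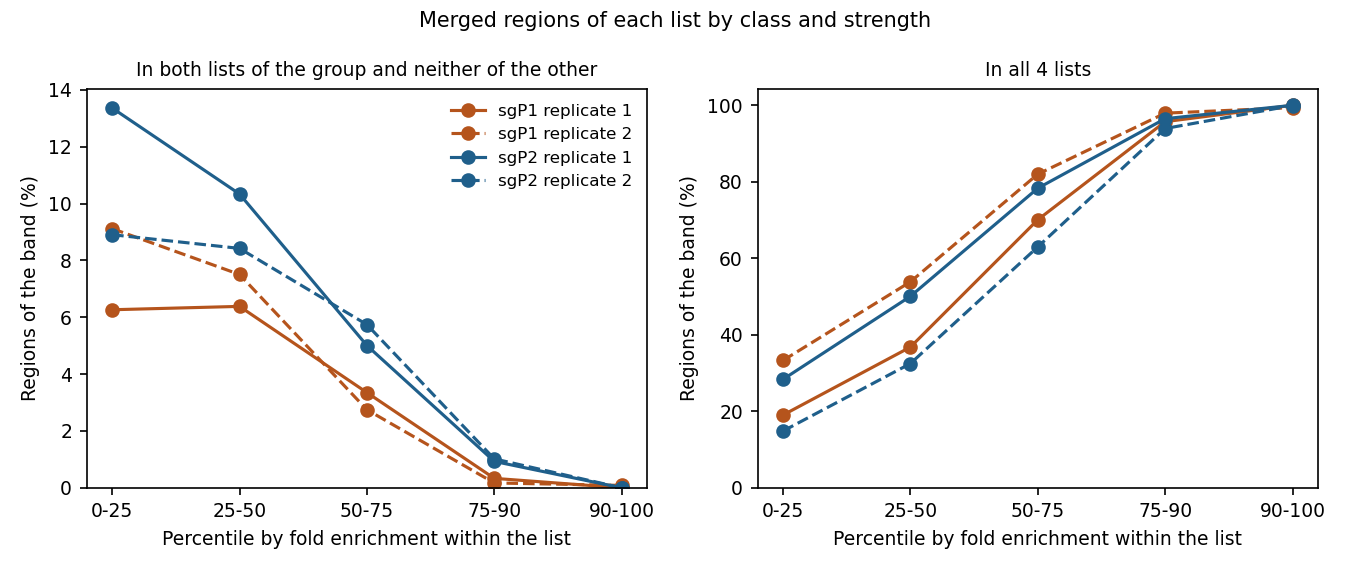
Share of the regions of each list that were specific to its guide (left) or present in all 4 lists (right), by percentile band of fold enrichment within the list; colours mark the guide and line styles the replicate. Shared regions made up 99.4% to 100% of the strongest band in every list, and specific regions were concentrated below percentile 75.

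Counts of specific regions depended on which replicates defined them. With lists of equal length the counts were 660 and 706, so most of the excess of sgP2-specific regions was absent at equal length. The excess remained at a −log10 q of at least 5 (465 and 894) and with summits within 100 bp (591 and 1005). With a reciprocal overlap of 50% of both peaks, the mean numbers of specific peaks per list were 741.5 and 1101. Leaving out 1 list at a time gave 898 to 2680 sgP1-specific and 1428 to 3513 sgP2-specific regions, since a class that rests on 3 lists takes in regions that the left-out list would have moved elsewhere.

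Distance to gene starts differed little between the classes. A start lay within 1 kb of the middle of 15.8% of sgP1-specific, 17.4% of sgP2-specific and 18.4% of shared regions, and 26.4%, 24.6% and 21.8% lay over 50 kb from any start. These shares leave out chromosome 8, for which no starts were used here.

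The top 10 of each class by mean percentile are described here with their nearest protein-coding gene. The first sgP1-specific region (chr11:93017208-93018012) lay 32.6 kb from MTNR1B, a melatonin receptor gene, at percentiles 79.4 and 91.7 in the sgP1 lists and 80.7 and 70.3 in the sgNC lists. It overlapped a peak in 8 of the 8 induced lists, of both isoforms and both lines, yet was called in neither sgP2 list.

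Inside HERC1, which encodes a large ubiquitin ligase, the region chr15:63709127-63709808 reached percentiles 77.0 and 76.6. It overlapped a peak in 4 induced lists, the 2 of Panc10.05 P1-α2 and the 2 of BxPC3 P1-α2, and in 0 of the 4 P2-α8 lists. The region in PDS5B, a cohesin regulator, stood at 78.2 and 73.2, and that near YPEL5 at 68.6 and 82.6. Both overlapped 0 of the 8 induced lists. DIPK1A, CA10, PTPRK (a receptor tyrosine phosphatase), ERC1 and LIPF (gastric lipase) were the nearest genes of the others, with mean percentiles between 66.2 and 73.4. Of these 10 regions, HNF4A included, 10 had a peak in sgNC replicate 1, 8 in sgNC replicate 2 and 0 in either P1-antibody list of sgP2 cells.

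Within TRIO, which encodes a guanine nucleotide exchange factor, lay the strongest sgP2-specific region (chr5:14467269-14467759), at percentiles 79.0 and 79.2 in the sgP2 lists and 62.3 and 64.6 in the sgNC lists. POU2F3, the tuft cell transcription factor, held a region 1514 bases from a start (chr11:120290870-120291436) at percentiles 81.4 and 74.5 in the sgP2 lists. That region overlapped 8 of the 8 induced lists, and 1 of the 2 P1-antibody lists at percentile 40.9. In AGXT, the peroxisomal alanine-glyoxylate aminotransferase of liver, the region chr2:240876292-240876954 reached 72.4 and 83.3 and overlapped 0 of the 8 induced lists. It had a peak in 1 P1-antibody list, and in the sgNC lists it stood at 52.1 and 3.82.

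A region (chr14:94599183-94599806) near SERPINA5, which encodes the protein C inhibitor, had percentiles of 76.3 and 76.4. Near AKR1A1, an aldehyde reductase, the values were 63.2 and 89.0, and in C2CD2L they were 63.7 and 86.5. VPS28, MSRB3 and ZBTB7B were the nearest genes of 3 others. All 10 sgP2-specific regions had a peak in both sgNC lists, 8 overlapped a P1-antibody peak in at least 1 sgP2 library, and 5 overlapped all 8 induced lists, against 1 of the 10 sgP1-specific regions. Over the whole classes, 11.5% of sgP2-specific and 2.14% of sgP1-specific regions had such a P1-antibody peak, and 14.9% and 6.58% overlapped all 8 induced lists. The P1-antibody lists come from sgP2 cells, where sgP1-specific regions lack a pan-HNF4α peak by the rule, so the P1-antibody counts follow in large part from the choice of regions.

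**Figure D2:**
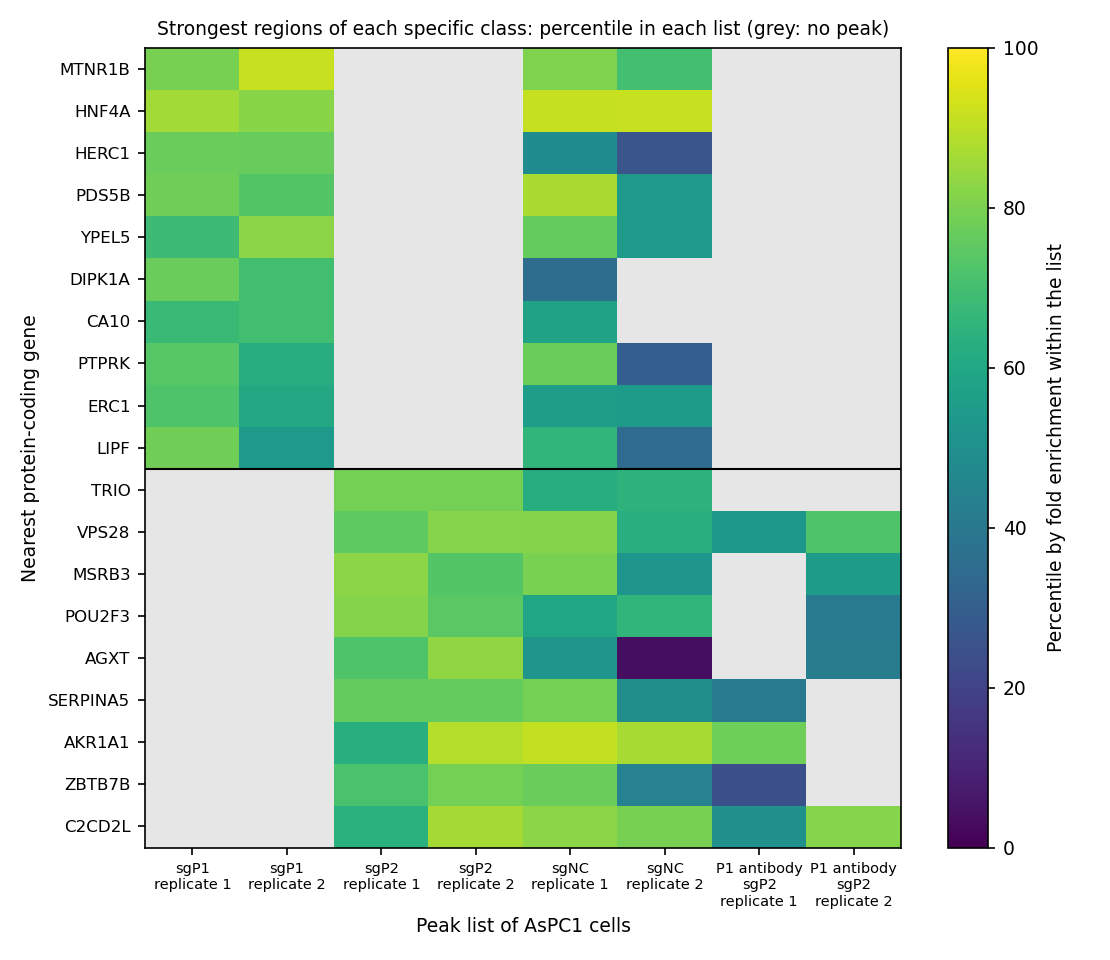
Percentile of fold enrichment within each AsPC1 peak list (colour, grey where no peak was called) for the 10 strongest sgP1-specific regions (above the line) and 9 of the 10 strongest sgP2-specific regions (below it), named by nearest protein-coding gene. Of the sgP2-specific regions 8 have a P1-antibody peak, against 11.5% of that whole class, and the P1-antibody lists come from sgP2 cells, where the sgP1-specific regions lack a pan-HNF4α peak by the rule.

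In the lists of the induced lines, sgP1-specific regions were found less often than all merged regions, and sgP2-specific regions about as often. In the Panc10.05 P1-α2 lists a peak overlapped 30.2% and 36.7% of sgP1-specific regions, 49.4% and 60.1% of sgP2-specific regions, 70.4% and 72.4% of shared regions and 48.7% and 55.0% of all merged regions. For Panc10.05 P2-α8 the shares were 31.0% and 27.4% of sgP1-specific against 56.3% and 52.1% of sgP2-specific regions, beside 52.5% and 48.3% of all merged regions. For BxPC3 P1-α2 they were 32.6% and 26.2% against 58.0% and 47.5%, beside 51.7% and 43.7% of all merged regions. For BxPC3 P2-α8 they were 11.9% and 14.4% against 25.1% and 26.7%, beside 27.0% and 26.6%.

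The sgP2-specific class was higher than the sgP1-specific class in 8 of 8 induced lists, those of the P2 isoform as well as those of the P1 isoform. The exact (Clopper-Pearson) 95% intervals of the classes did not overlap in any of the 8 lists (in the first Panc10.05 P1-α2 list, 26.5% to 34.2% against 46.0% to 52.7%). These intervals cover counting error over regions only, and regions are not replicates, so no test was made. No induced list held 45.2% of sgP1-specific, 22.0% of sgP2-specific and 13.1% of shared regions, and all 8 held 6.58%, 14.9% and 30.0% of them.

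Peak strength was looked at beside this difference. Among regions with a mean percentile of 20 to 50 in their own lists, 24.2% of 330 sgP1-specific and 48.9% of 527 sgP2-specific regions overlapped a peak, as a mean over the 8 lists. Below percentile 20 the classes lay closer in every induced group (154 sgP1-specific and 219 sgP2-specific regions, means of 2 lists). There the shares were 36.36% against 39.73% for Panc10.05 P1-α2 and 33.12% against 43.15% for Panc10.05 P2-α8. For BxPC3 P1-α2 they were 28.25% against 36.99%, and for BxPC3 P2-α8 12.01% against 15.53%. From percentile 50 to 100 the group means were 21.2% to 41.7% of 78 against 40.6% to 70.9% of 139 regions. Over 1 kb from a start the mean shares over the 8 lists were 26.8% and 48.1%. The difference of 20.6 points over all regions fell to 7.18 points when sgP2 replicate 1 was left out (27.9% against 35.0%) and to 1.75 points when sgP2 replicate 2 was left out (34.3% against 36.1%), while it was 23.7 points without sgP1 replicate 1 and 27.2 points without sgP1 replicate 2. Leaving out any list, of either guide, changes the members of both classes at once.

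In control cells specific regions of both classes were called at shares within a few points of, or below, that of all merged regions. The first sgNC list, of 24295 peaks, held 85.4% of sgP1-specific, 88.6% of sgP2-specific and 83.8% of all merged regions, and the second, of 15118 peaks, held 51.4%, 60% and 64.2%. The share of each class differed more between these sgNC lists, which differ in length, than the classes differed within either list. Leaving out sgP2 replicate 1 turned the order of the mean shares, to 74.0% of sgP1-specific against 51.9% of sgP2-specific regions, and leaving out sgP2 replicate 2 also did, with 78.7% against 56.7%.

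The P1 antibody, used in sgP2 cells, gave a peak at 1.60% and 0.534% of sgP1-specific regions (9 and 3 regions), at 7.91% and 4.75% of sgP2-specific regions (70 and 42), and at 52.1% and 44.3% of shared regions. Over all merged regions the shares were 22.2% and 18.2%, so both specific classes lay below them. Both P1-antibody lists come from cells with the sgP2 guide, where by the rule sgP1-specific regions have no pan-HNF4α peak, so the order of the specific classes is largely fixed by how they were chosen. In sgNC cells the P1-antibody lists were short (697 and 260 peaks) and held 1 and 0 sgP1-specific and 4 and 4 sgP2-specific regions. The mean shares in the sgP2 P1-antibody lists were 1.56% against 2.80% without sgP2 replicate 1 of the pan-HNF4α lists and 2.96% against 3.81% without replicate 2.

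**Figure D3:**
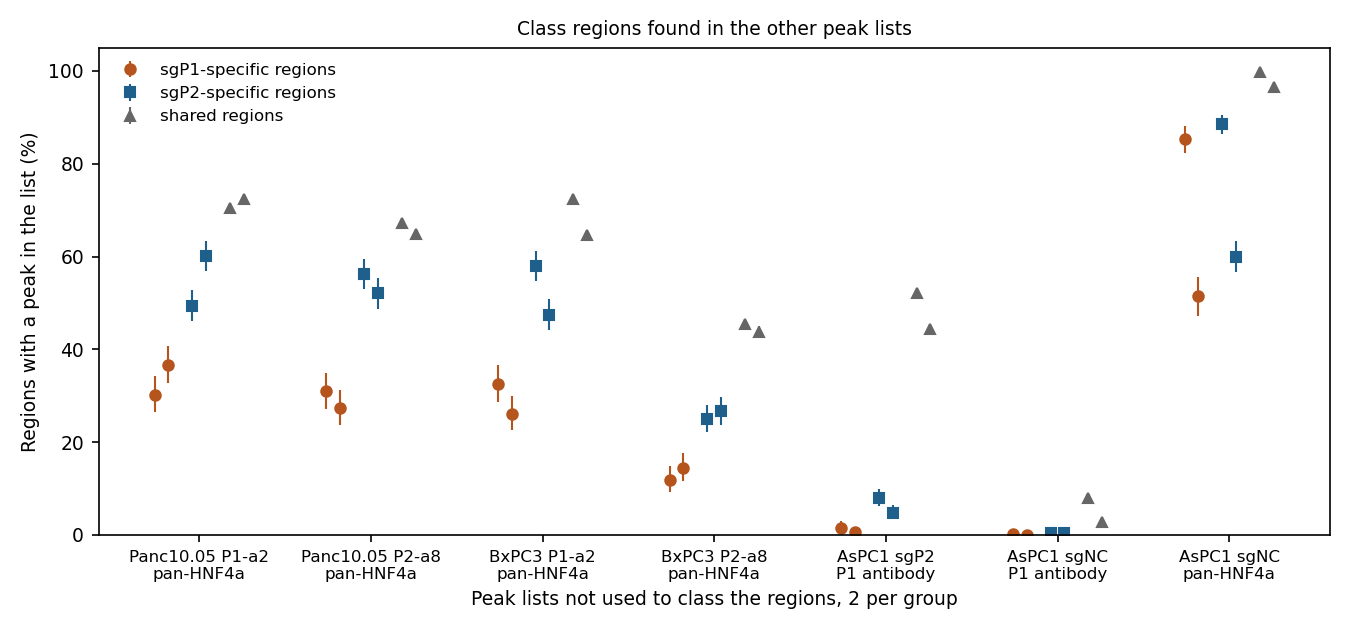
Share of sgP1-specific, sgP2-specific and shared regions that overlap a peak of each list not used to class them; each point is 1 list and bars are exact 95% intervals of counting error. In each of the 8 lists of the induced lines the sgP2-specific points lie above the sgP1-specific points and below the shared ones.

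At the 7771 shared regions the ranks of binding strength were close in all 4 lists, and few single regions could be separated by guide. Each list's shared regions were ranked by fold enrichment, and the ranks, as normal scores, were compared by limma (sgP2 minus sgP1, Benjamini-Hochberg adjustment over all shared regions). The adjusted p was under 0.05 for 2 regions higher in sgP2 (0.0257% of the regions tested) and for 0 higher in sgP1 (0%). At an unadjusted limma p under 0.05 there were 408 (5.25%) and 392 (5.04%) regions, together 800 or 10.3% of those tested. Both sgP2 lists lay above both sgP1 lists at 1563 regions (20.1%), and below both at 1600 regions (20.6%).

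Spearman's rho across the shared regions was 0.765 between the sgP1 lists, 0.789 between the sgP2 lists and 0.724 to 0.732 between lists of different guides. Replicates differed by a median of 11.7 (sgP1) and 10.8 (sgP2) rank percentiles, and single lists of different guides by 12.3 to 12.7. Lists of different guides thus differed slightly more than replicates did. A difference of group means over 25 percentiles was seen at 509 regions with sgP2 higher and 539 with sgP1 higher.

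The first of the called regions (chr10:112048377-112049035) lay 101159 bases from GPAM, which encodes the mitochondrial glycerol-3-phosphate acyltransferase that starts glycerolipid synthesis. Its rank percentile among shared regions was 26.4 and 37.5 in the sgP1 lists, 93.6 and 90.1 in the sgP2 lists and 94.0 and 90.4 in the sgNC lists. Both sgP1 lists were therefore far below the other 4. The shift was 1.88 ± 0.37 normal-score units (SE), with a limma adjusted p of 0.0169, and the P1 antibody gave peaks there at percentiles 71.3 and 93.2 of its lists.

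The second called region (chr19:2576731-2577611) lay in GNG7, a G protein gamma subunit gene. It ranked at percentiles 85.4 and 71.4 in the sgP1 lists, 99.4 and 99.5 in the sgP2 lists and 93.8 and 97.9 in the sgNC lists, so that only the sgP1 lists were below 90. The shift was 1.72 ± 0.30 (SE; limma adjusted p 0.00283), and its P1-antibody peaks stood at percentiles 99.3 and 99.1. Neither call held on 3 lists, where the shifts were 1.68 to 1.97 for GPAM and 1.44 to 1.93 for GNG7 with limma adjusted p of 0.102 to 0.516 and 0.0613 to 0.465, nor with percentiles in place of normal scores (0.606 for both). Both calls held with ranks by −log10 p (limma adjusted p 0.00129 for both), at a −log10 q of at least 5 (0.0246 and 0.00443) and with summits within 100 bp (0.0365 and 0.00685).

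Beyond these calls, the 8 regions with the largest shifts towards sgP2 and the 10 with the largest towards sgP1, among those whose lists did not overlap, are given as values. FHOD3, a formin of the actin cytoskeleton, had a region (chr18:36493106-36493685) at rank percentiles 4.65 and 16.3 in sgP1, 70.3 and 86.7 in sgP2 and 73.6 and 70.7 in sgNC. Near SPRY2, an inhibitor of receptor tyrosine kinase signalling, the ranks were 2.73 and 8.68 in sgP1, 73.4 and 61.4 in sgP2 and 48.3 and 49.1 in sgNC. At WWC1, which encodes the Hippo pathway protein KIBRA, they were 8.64 and 4.39, then 60.7 and 65.6, then 69.0 and 65.9. In these 3 cases both sgNC lists ranked above both sgP1 lists.

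LAIR2, TINAGL1, ATG16L1 (an autophagy gene), MAT2A (methionine adenosyltransferase) and SLC20A1 (a phosphate transporter) were nearest to the remaining regions that ranked higher in sgP2. Their shifts ran from 1.83 to 1.97 normal-score units. At MAT2A the sgNC ranks were 29.8 and 0.0866 beside 1.72 and 2.63 in sgP1, and at TINAGL1 they were 64.8 and 12.5 beside 32.0 and 2.86, so the sgNC and sgP1 lists overlapped at both. With the ranks taken by −log10 p, the limma adjusted p was under 0.05 also for the regions at FHOD3 (0.0156), LAIR2 (0.0244), TINAGL1 (0.0437) and ATG16L1 (0.0267).

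Towards sgP1 the first region (chr10:102604391-102604858) lay in SUFU, a negative regulator of Hedgehog signalling. It ranked at percentiles 68.3 and 63.2 in sgP1, 1.06 and 7.23 in sgP2 and 50.4 and 66.4 in sgNC, and no P1-antibody peak was called there. The shift was -2.29 ± 0.56 (SE), with a limma adjusted p of 0.0995. Near CXXC5 the ranks were 69.4 and 44.7 in sgP1, 4.13 and 1.91 in sgP2 and 27.9 and 4.72 in sgNC.

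At NFIL3, which encodes a transcription factor that represses clock output genes, the ranks were 57.4 and 29.9 in sgP1, 3.74 and 2.90 in sgP2 and 7.37 and 26.5 in sgNC. Here and at CXXC5 both sgNC lists ranked below both sgP1 lists. The others lay in or near TM4SF20, CYSTM1, SLC25A43, LOC102724334, SGMS1 (a sphingomyelin synthase), TRIM36 and CEP192 (a centrosome protein), with shifts from -1.75 to -1.68. Of these 10 regions, 2 had a P1-antibody peak in at least 1 list, SLC25A43 and CEP192, against 8 of the 10 that ranked higher in sgP2 and 60.3% of all shared regions. The named regions were picked for high or low ranks in sgP2 cells, the cells of the P1-antibody lists.

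**Figure D4:**
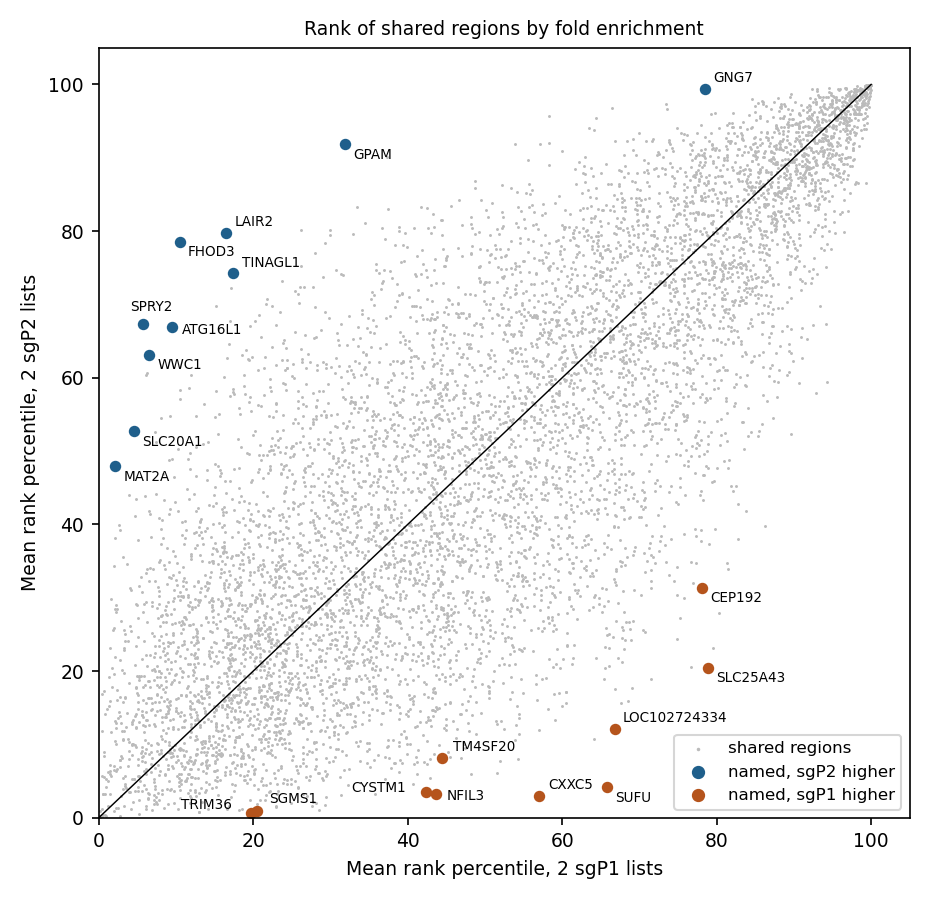
Mean rank percentile by fold enrichment of each of the 7771 shared regions in the 2 sgP1 lists (x axis) and the 2 sgP2 lists (y axis), with the line of equal rank; coloured points are the 10 named regions in each direction. GPAM and GNG7 are the only regions past the adjusted limma threshold.

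Shared regions with P1-antibody peaks in sgP2 cells ranked slightly higher in the sgP2 lists than in the sgP1 lists. Which of the guides moved the ranks was not tested. At the 2802 shared regions with a P1-antibody peak in both sgP2 P1-antibody lists, the mean rank percentile was 72.5 and 72.8 in the sgP1 lists and 75 and 75.4 in the sgP2 lists. The difference of 2.57 points was larger than the replicate SD of at most 0.318 points, and the groups did not overlap (two-sided exact permutation over the 4 lists, p = 0.33, the smallest that 2 against 2 allows). Both sgP2 lists exceeded both sgP1 lists at 25.2% of these regions and were below both at 17.5%, beside 20.1% and 20.6% over all shared regions.

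Shared regions without a P1-antibody peak differed in the other direction, which the ranking itself largely requires. The mean rank over all shared regions is the same in every list, so higher ranks at some regions go with lower ranks at others. The fall is therefore not a separate result. Regions with a peak in only 1 P1-antibody list were in neither set, so the differences need not mirror each other exactly. At the 3086 shared regions without any P1-antibody peak, a set added after seeing the data, the means were 31.5 and 31.6 in the sgP1 lists and 28.4 and 28.6 in the sgP2 lists. P1-antibody sites were chosen in cells with the sgP2 guide, which the sgP2 lists share, so the choice itself favours high ranks in those lists. The 186 shared regions with a P1-antibody peak in both sgNC lists, chosen instead in cells without that guide, had means of 92.7 and 92.3 in sgP1 and 93.5 and 93.3 in sgP2. That difference, 0.860 points, had the same direction and was smaller (exact permutation p = 0.33).

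P1-antibody sites are strong sites, so both sets were compared within 3 bands of equal size of the rank in the sgNC lists, which neither guide's lists set. In the lowest band, 142 P1-antibody sites had means of 33.7 and 35.6 in sgP1 and 39.1 and 42.4 in sgP2, and 1772 sites without a peak had 26.0 and 25.7 against 23.3 and 23.2. In the middle band the differences were 3.56 points at P1-antibody sites and -3.74 points at the others. In the highest band they were 1.98 and -4.72 points. The sgP2 lists were higher at P1-antibody sites and lower at the others in all 3 bands, with no overlap between the guides in any of the 6 comparisons (exact permutation p = 0.33 for each). All 6 use ranks over the same shared regions, so they are not independent. These bands were added after seeing the data, and their P1-antibody sites were still those chosen in sgP2 cells.

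**Figure D5:**
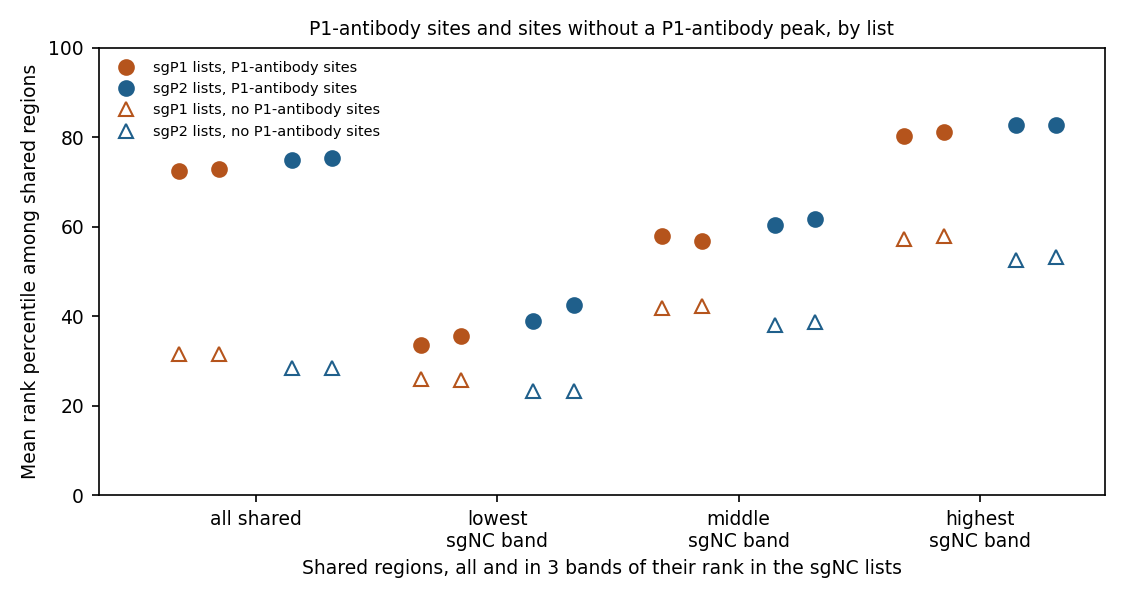
Mean rank percentile among shared regions in each of the 4 lists (points, colour by guide) for sites with a P1-antibody peak in both sgP2 P1-antibody lists (filled) and for sites with none (open), over all shared regions and in 3 bands of sgNC rank. The filled points of sgP2 lie above those of sgP1 and the open points below, in each band.

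Sites called with a single isoform in the induced lines did not move in a common direction. The 333 shared regions called in both Panc10.05 P1-α2 lists and neither P2-α8 list had mean ranks of 53.1 and 51.4 in sgP1 and 49.95 and 49.76 in sgP2, a difference of -2.39 points. The 985 such regions of BxPC3 had 44.5 and 45.1 in sgP1 and 46.3 and 45.8 in sgP2, a difference of 1.30 points in the other direction. At the P2-α8 sites the lists of the guides overlapped, with differences of -0.348 points in Panc10.05 (86 regions) and 0.586 points in BxPC3 (7 regions). The BxPC3 P2-α8 lists were shorter (12681 and 14666 peaks) than those of P1-α2 (41808 and 33737). A site without a P2-α8 peak there may therefore still be bound by P2-α8. The exact permutation p was 0.33 for both P1-α2 sets and 1 for both P2-α8 sets, and 0.667 to 1 after adjustment over the 4 sets.

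Across shared regions ranked in all lists, the shift from sgP1 to sgP2 and the shift from P2-α8 to P1-α2 had a Pearson correlation of -0.0223 in Panc10.05 (4492 regions) and 0.0705 in BxPC3 (2756 regions). Regions of 1 list share that library's depth and immunoprecipitation, and correlations this weak are given as descriptions.

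Genes near the specific regions were then counted. A protein-coding gene was assigned to a class when a region of that class lay within 50 kb of its span. Of 20037 protein-coding genes, 960 (4.79%) were near an sgP1-specific region, 1572 (7.85%) near an sgP2-specific region and 8814 (44.0%) near a shared region. Both specific classes lay near 104 genes, which are 10.8% of the first set and 6.62% of the second. Most of these genes had a shared region within 50 kb as well, 67.6% of those near sgP1-specific and 68.1% of those near sgP2-specific regions.

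Among transcription factor genes of the HNF network and endoderm, 2 of 33 were near an sgP1-specific region, HNF4A and ONECUT2. Near an sgP2-specific region was 1, GATA4. These are 6.06% and 3.03%, beside 4.79% and 7.85% of all protein-coding genes. ONECUT2, a cut-homeodomain factor of liver and pancreas, had its region at percentiles 39.8 and 28.4 of the sgP1 lists. The region near GATA4, a zinc-finger factor of foregut endoderm, stood at 56.0 and 61.5 of the sgP2 lists and overlapped 8 of the 8 induced lists.

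Gut differentiation genes were near both classes at similar shares, 7 of 38 (18.4%) for sgP1-specific and 6 of 38 (15.8%) for sgP2-specific regions. Over all protein-coding genes the shares were 4.79% and 7.85%. MUC13, a transmembrane mucin, had an sgP1-specific region at percentiles 61.8 and 59.0, and MYO7B, a brush border myosin, one at 59.2 and 51.3. On the sgP2 side were CDHR5, an intermicrovillar cadherin (47.0 and 80.5), VIL1, the microvillus protein villin (37.5 and 44.3), and PHGR1 (20.8 and 35.7). PHGR1 and CDH17, an intestinal cadherin, were near regions of both classes, PHGR1 with an sgP1-specific region at 39.8 and 2.18. This list was also near shared regions more often than all genes, 60.5% against 44.0%.

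Lipid and glucose genes had 1 of 35 members near an sgP1-specific region, CIDEC, and 5 of 35 near sgP2-specific ones. These 5 were ACSL5 (33.8 and 51.9 in the sgP2 lists), PCK2 (53.5 and 31.9), SREBF1 (26.6 and 42.3), SCD and HK2, which act in fatty acid activation, mitochondrial gluconeogenesis, lipogenic transcription, fatty acid desaturation and glycolysis. The lipid and glucose shares were 2.86% and 14.3%, beside 4.79% and 7.85% of all protein-coding genes. Of the genes of bile acid handling, drug metabolism and transport, 2 of 34 (5.88%) were near sgP1-specific regions, SLC5A1 and ABCC2. Near sgP2-specific regions were 5 of 34 (14.7%). These 5 included SLC39A4, a zinc importer of the gut (75.3 and 81.7), ABCG2, a drug efflux pump (73.1 and 43.5), SLC15A1 and SLC10A1. The SLC39A4 region is the one named above for VPS28, which lies nearer to it (0.194 kb against 6.58 kb).

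Clock genes stood near both classes more often than all genes did, 5 of 20 (25.0%) for sgP1-specific and 4 of 20 (20.0%) for sgP2-specific regions, and 65.0% were near a shared region. The sgP1 side held TEF (72.7 and 58.1), NR1D1 (44.4 and 44.1) and PER1 (42.6 and 29.4), besides PER2 and RORA. BHLHE40 (33.3 and 55.6), HLF (54.0 and 9.09), NPAS2 (24.2 and 24.2) and CRY2 were on the sgP2 side. No clock gene was near both.

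Of the adhesion and mesenchymal transition genes, 4 of 32 (12.5%) were near sgP1-specific and 9 of 32 (28.1%) near sgP2-specific regions. Near shared regions were 78.1%. All protein-coding genes had shares of 4.79%, 7.85% and 44.0%. ITGA3, an integrin subunit, and OCLN, a tight junction protein, were on the sgP1 side. ITGB4, the integrin subunit of hemidesmosomes (35.0 and 73.7), and CLDN2, a pore-forming claudin (40.3 and 52.2), led the sgP2 side.

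Growth and cell cycle genes had 0 of 30 members near an sgP1-specific region and 3 of 30 near an sgP2-specific region, ERBB2, FGFR3 and HES1. In the Wnt list the counts were 1 of 28, TCF7L2, and 2 of 28, WNT7B (68.2 and 76.7) and LGR4. Among basal and squamous genes they were 3 of 30 (KRT7, KRT14 and KRT15) and 4 of 30 (TRIM29, DSG3, KRT15 and LAMB3). Among plasma protein genes of liver they were 1 of 40 (PROC) and 2 of 40 (PROC and ITIH2). KRT14 and KRT15 were counted from the same sgP1-specific region, and neighbouring genes of the gut and adhesion lists shared regions too. The sgP2-specific shares were 10% for growth, 7.14% for Wnt, 13.3% for basal and 5% for plasma protein genes, beside 7.85% of all genes. In the same order the sgP1-specific shares were 0%, 3.57%, 10% and 2.5%, beside 4.79% of all genes. Counts this small are descriptions. A list whose members lie near many HNF4α sites of every class will hold more near both specific classes.

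Of the marker genes of epithelium, 5 of 5 (EPCAM, KRT8, KRT18, KRT19 and CDH1) were near a shared region. A shared region lay near 1 of 3 leukocyte and 3 of 3 fibroblast marker genes too. Peaks show binding and not expression, so these counts do not show which cells were present.

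Promoters under the classes were searched for the HNF4 motif. The window from 250 bases before to 50 bases after each start held the motif CAAAGTCCA, on either strand with up to 1 mismatch, in 6.97% of 35116 promoters. It was present in 7 of 62 promoters that an sgP1-specific region overlapped (11.3%), 22 of 136 for sgP2-specific regions (16.2%) and 229 of 1466 for shared regions (15.6%). For promoters under any merged region it was 406 of 3340 (12.2%), so the sgP1-specific share lay slightly below that. The HNF1 half-site GTTAAT, with no mismatch allowed, was in 6.88% of all promoters and 3.68% of those under any merged region. By class it was in 4 of 62, 4 of 136 and 52 of 1466, or 6.45%, 2.94% and 3.55%. A match is a description of the letters and not evidence of a bound site.

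The 4 promoters printed above differed in strength and in the other libraries. DICER1 had its region (chr14:95157574-95157915) at percentiles 26.4 and 54.6 in the sgP1 lists, and KCNN4 (chr19:43780807-43781259) at 41.3 and 6.02. The A1CF region (chr10:50885570-50885833) stood at 48.2 and 64.9 in the sgP2 lists and the AATK region (chr17:81131882-81132194) at 48.4 and 55.6. All 4 had a peak in both sgNC lists. AATK overlapped 8 of the 8 induced lists and a P1-antibody peak of sgP2 replicate 1, DICER1 overlapped 3 induced lists, and KCNN4 and A1CF overlapped 0.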

How the data were processed

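ChIP-seq of AsPC1 cells gave 1 deposited narrowPeak list per library. Per the submitters' processing notes, Bowtie2 2.2.9 and MACS2 2.2.7 were used and the builds hg38 and mm10 are named, with no role given. The control used for calling and the read depth are not given in the sources used here. In the deposited lists the authors' fold enrichment is a linear ratio, p and q are on a −log10 scale. The deposited integer score is 10 times the −log10 q, rounded down in nearly every line, and was not used. These values were used only within a list. The lowest −log10 q was above 8 in each list of the induced lines and above 2 in each AsPC1 list, so their peak numbers were not compared.

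Groups came from the labelled genotype and antibody. Titles and genotype labels disagree for the P2-α8 libraries of BxPC3, and the genotype was taken. Peaks of the 4 lists that overlapped by at least 1 bp were merged (chromosomes 1 to 22, X and Y). Shared regions were ranked by the highest fold enrichment in each list, and normal scores were fitted with limma 3.58.1 (R 4.3.3, eBayes with trend), tested on simulated data. Overlaps were checked against bedtools 2.31.1. Coordinates are 1-based on hg38, and RefSeq genes and promoters of GRCh38.p14 were used. Of summits, 18.3% to 19.5% lay within 1 kb of a start, against 3.51% to 3.68% after a shift of 100 kb. The planned motif search at summits needs a genome sequence and was not run; promoters were searched instead. The input libraries were not analysed here.

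Named regions were the 10 with the highest mean percentile in each specific class, the 10 in each direction with the largest shift among shared regions (called ones first, then those whose lists did not overlap), and at most 3 members of each of 10 gene lists by mean percentile, with further members named, after their values were seen, where a count was 5 or fewer. Of 321 listed genes, 320 matched the gene table. The members and lists were chosen with earlier results of these data known. A few members counted in the text are not reported here by name. Gene list members on chromosome 8 are given without coordinates.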

Additional observations from a re-analysis of the deposited data

How the results depend on the processing

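Leaving out 1 of the 4 lists at a time gave 898 to 2680 regions specific to sgP1, 1428 to 3513 specific to sgP2, 1470 to 4057 genes near sgP1-specific regions and 2606 to 5469 near sgP2-specific ones, because fewer lists then define a class. Within 10 kb the genes numbered 450 and 757. Shared regions past the adjusted limma threshold, higher in sgP1 and in sgP2, numbered 13 and 34 with ranks by −log10 p, 1 and 6 among regions with 1 peak per list, 0 and 0 with percentile ranks, and 0 and 0 without any 1 of the 4 lists. With the replicate number as a replicate block they were 2 and 7. Deviations of same-numbered libraries had a correlation of 0.00333 across shared regions, and nothing in the labels pairs them.

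The difference at the Panc10.05 P2-α8 sites turned to 2.09 points at a −log10 q of at least 5, and ranged from -2.00 to 1.16 points without 1 list (1.16 without sgP1 replicate 1). At the 7 BxPC3 P2-α8 sites it was -1.11 points with −log10 p and -6.65 to 7.58 points without 1 list (-6.65 without sgP1 replicate 2). With summits within 100 bp, P1-antibody peaks lay at 4.65% of sgP1-specific and 9.05% of sgP2-specific regions, and without 1 list at 0.534% to 2.96% and 2.80% to 8.18%. The share of sgP2-specific regions with an sgNC peak ran from 51.9% to 88.6%. Induced lines held 30.8% of sgP1-specific regions at equal list length and 22.1% to 34.3% without 1 list, against 35.0% to 49.3% of sgP2-specific regions. The alternatives for induced lines, the sgNC-chosen sites and the sgNC bands were chosen after seeing the data. Read depth is not given in the sources used here, so the depth behind a missing peak is unknown.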
